A study of Mus musculus with 24 samples.

Results

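Transcripts of 10 regulators of the mitochondrial cell death pathway, the Bcl2 family, were followed in a mouse cell line given corticosterone, TCA or both. The 10 genes (Bcl2, Bcl2l1, Bcl2l2, Mcl1, Bax, Bak1, Bcl2l11, Bbc3, Pmaip1 and Bmf) were chosen by name. The deposited tables whose libraries were joined held 25124 genes, and each of the 10 was present in all 6 tables. The cells were C127, a line of mouse mammary origin that the labels write as C127l and describe as adenocarcinoma. Per the labels, every group lacked its own glucocorticoid receptor (GRKO) and carried a GFP-tagged mouse receptor, either the form named GFP-mGRtetra (tetra) or the wild-type form GFP-mGRwt (wt). The labels do not describe the tetra form, and neither the promoter that drives the transgene nor the number of clones behind each line is given in the sources used here. Each line was given 100 µM TCA plus 100 nM corticosterone (Cort), 100 µM TCA alone or 100 nM Cort alone for 2 h, or vehicle, after growth in charcoal-stripped serum. TCA is read here as taurocholic acid because the series concerns bile acids, although no label gives the full name. Each of the 8 groups had 3 libraries. The labels number the replicates but do not say whether they came from separate cultures, so p-values measure the spread between these libraries, which may be technical.

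Each library held 22.02 M to 30.6 M recovered exon reads, and values are normalised read counts scaled together over the 24 libraries unless stated otherwise. Nr3c1, the receptor gene, was named outside the list and had group means from 4246 to 5870.2 normalised counts. In wt cells it averaged 4246 with TCA and 4250 with TCA plus Cort, against 5528 with vehicle and 5860 with Cort. In tetra cells it averaged 5870 with TCA and 5284 with TCA plus Cort, against 5451 with vehicle and 5123 with Cort. Nr3c1 reads join the disrupted gene and the mouse transgene, so they do not check the labels, and their part in the results was not tested. Per1, a circadian gene long known as a glucocorticoid target, checked the Cort treatment: it averaged 2673 ± 200 with Cort and 501 ± 13.5 with vehicle in tetra cells, and 2924 ± 278 with Cort and 431 ± 32.8 with vehicle in wt cells (SD, n = 3 each). Replicate 3 of the wt TCA group stood apart, since leaving it out moved the genes called for TCA plus Cort against TCA in wt cells to 2570, against 53 with it. Of 8 epithelial markers Epcam was at 0 in all libraries and their sum was at most 38.0, whereas 7 mesenchymal markers summed to between 150478 and 237006, led by Vim and Col1a2. The milk genes Csn2, Wap and Lalba had a mean of at most 0.13 over the 24 libraries, so defining markers of differentiated mammary epithelium were absent or nearly so.

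The Bcl2 family controls whether the outer mitochondrial membrane stays intact. Bcl2, Bcl2l1 (Bcl-xL), Bcl2l2 (Bcl-w) and Mcl1 are protective, Bax and Bak1 form the pores through which cytochrome c leaves, and the BH3-only members Bcl2l11 (Bim), Bbc3 (Puma), Pmaip1 (Noxa) and Bmf bind the protective members and so free the pore formers. Glucocorticoids are known to kill lymphoid cells, where Bcl2l11 is induced, and are known as survival factors for mammary epithelium.

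Promoter sequences are shown for Bcl2l1 and Bcl2l11, the members that passed the test with Cort in both lines. They come from RefSeq (GRCm38.p6), which held 16 start-site windows for 9 of the 10 members, each from 250 bases before to 50 after the start. Capitals mark matches to 1 of 4 motifs searched on both strands: ACANNNTGT, a core spacing of the glucocorticoid response element; AGAACA, its hexamer; TGATGNAA, a form bound by ATF4 with a C/EBP partner; and GGGCGG, the GC box.
Bcl2l1, chr2:152828625-152828653, minus strand: agatttggtgACAGACTGTatgtgggtgt
Bcl2l1, chr2:152831729-152831978, minus strand: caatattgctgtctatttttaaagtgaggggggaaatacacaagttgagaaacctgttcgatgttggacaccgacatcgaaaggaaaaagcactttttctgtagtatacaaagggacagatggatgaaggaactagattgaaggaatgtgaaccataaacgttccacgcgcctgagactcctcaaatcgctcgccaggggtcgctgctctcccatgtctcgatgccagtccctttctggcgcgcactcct
Bcl2l11, chr2:128125788-128126037, plus strand: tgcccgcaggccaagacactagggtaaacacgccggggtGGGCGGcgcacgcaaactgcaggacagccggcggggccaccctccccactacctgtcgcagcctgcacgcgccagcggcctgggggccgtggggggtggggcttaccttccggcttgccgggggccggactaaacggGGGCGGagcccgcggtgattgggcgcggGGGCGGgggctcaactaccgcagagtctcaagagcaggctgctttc
The short Bcl2l1 stretch is the surround of the single ACANNNTGT match among the members, whose first base lies at -154 from the start site at 152828489, in sequence that some GENCODE transcripts of Bcl2l1 hold as exon, and this spacing occurs in 6.85% of the 32851 RefSeq windows. The longer Bcl2l1 stretch lies just before another of its start sites and holds none of the 4 motifs. Neither Bcl2l1 stretch is at the start of its deposited entry, 152830717, whose window holds none of the 4 motifs either. The Bcl2l11 stretch ends at the start of its deposited entry and holds 3 GC boxes, a motif present in 35.7% of all windows. AGAACA, present in 19.0% of all windows, and TGATGNAA, present in 3.97%, had no match in the windows of the 9 members. These matches are descriptions of letters only.

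Per kilobase of exon, which allows levels to be set beside each other, Bax averaged 2611 and Bak1 averaged 1467 normalised counts per kb over the 24 libraries, the highest means of the members. The order differed between groups: Bcl2l1 stood above Bak1 per kb in tetra cells with TCA plus Cort (1690.0 against 1370.4) and with Cort (1509 against 1378). Over the 24 libraries Mcl1 (1070.0 per kb) and Bcl2l1 (1061 per kb) led the protective members, ahead of Bcl2l2 (249.6 per kb) and Bcl2 (169 per kb). Among the BH3-only members Bbc3 averaged 180.2, Bcl2l11 averaged 123 and Bmf averaged 12.3 normalised counts per kb. Pmaip1 had 1 read in 1 of the 24 libraries, a wt TCA library, which lies under a floor of 3 counts, and it could not be tested. The other 9 members passed the filter of a mean of at least 10 normalised counts in each comparison. In these bulk samples fewer cells expressing a gene and less RNA per cell cannot be told apart.

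Bcl2l1 had the largest range over the groups among the protective members, and its highest libraries were those with Cort in tetra cells. The deposited entry of Bcl2l1 spans chr2:152780664-152830717 on the minus strand and that of Bcl2l11 chr2:128126038-128162547 on the plus strand (mm10), with exon reads given as 1 entry per gene, so its isoforms are not separated. In tetra cells Bcl2l1 had normalised counts of 3854, 4233 and 3863 with Cort, and 1803, 1671 and 1728 with vehicle. In wt cells they were 3492, 3457 and 3227 with Cort, and 2695, 2619 and 2683 with vehicle. All Cort libraries of a line lay above all its vehicle libraries, and the vehicle level itself was lower in the tetra line. Bcl2l1, the gene of the survival protein Bcl-xL, was 2.30-fold higher with Cort in tetra cells (3983 ± 216 against 1734 ± 65.9, SD, n = 3 each; limma adjusted p = 1.85e-11) and 1.27-fold higher in wt cells (3392 ± 144 against 2666 ± 41.1, SD, n = 3 each; limma adjusted p = 8.12e-05). Adjusted p-values are Benjamini-Hochberg values over all genes tested, and a gene is called below 0.05. The response on the log2 scale was 0.85 ± 0.07 (SE) larger in tetra than in wt cells (limma adjusted p = 6.77e-08 for the difference), and this was a call in every alternative tried and after leaving out each library. Bcl2l1 was the 1 member of 9 that passed this test, where 1.17% of genes tested were called, 1.00% with a larger and 0.164% with a smaller value in tetra cells.

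**Figure D1:**
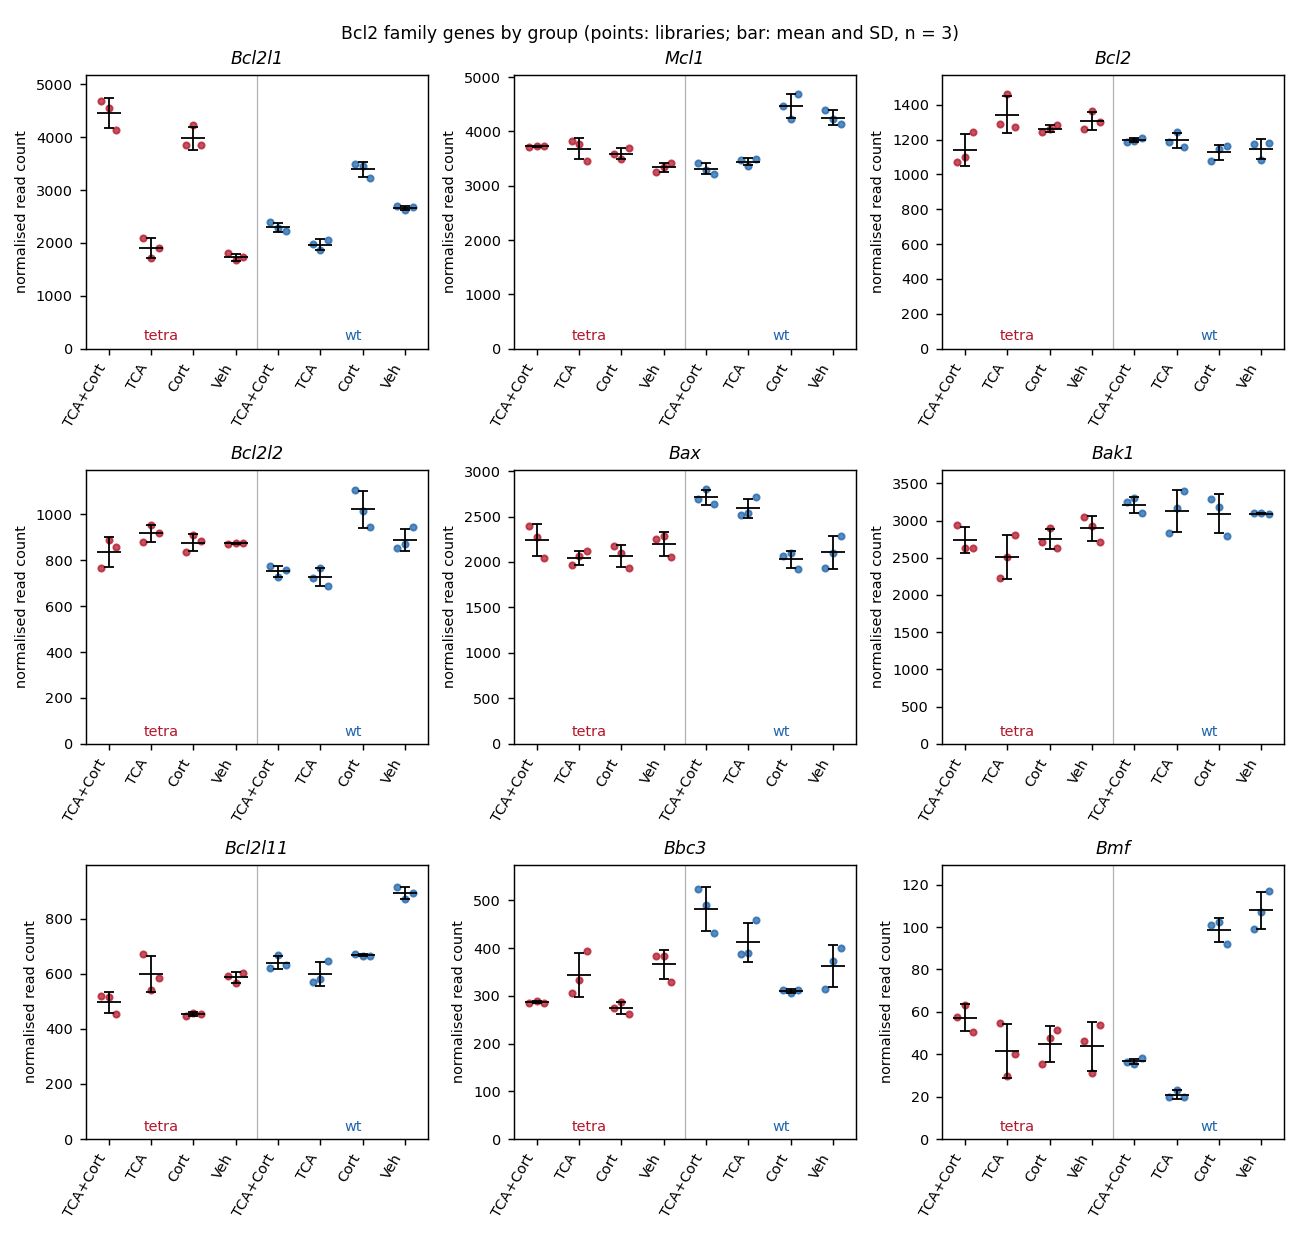
Normalised read counts of 9 members by group (linear axis from 0). Points are libraries, bars are the mean and SD of 3, and tetra groups stand left of wt groups; Bcl2l1 in tetra cells averages 4462 with TCA plus Cort and 3983 with Cort, above every other group, and Bmf with TCA in wt cells averages 21.0.

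Bcl2l11, which encodes the BH3-only protein Bim, moved the other way with Cort in both lines. In tetra cells it had 447, 459 and 455 normalised counts with Cort, against 593, 565 and 603 with vehicle. In wt cells it had 672, 666 and 665 with Cort, against 916, 871 and 893 with vehicle. The groups did not overlap in either line. With Cort Bcl2l11 was 1.29-fold lower in tetra cells (454 ± 5.88 against 587 ± 19.5, SD, n = 3 each; limma adjusted p = 0.00184) and 1.34-fold lower in wt cells (668 ± 4.04 against 893 ± 22.4, SD, n = 3 each; limma adjusted p = 0.000407). The 2 responses differed by 0.04 ± 0.08 (SE) on the log2 scale, tetra minus wt, which did not pass the test (limma adjusted p = 0.977). Both Cort comparisons use the vehicle libraries that also serve the TCA comparisons of their line.

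Bbc3, the BH3-only gene of Puma, fell with Cort in tetra cells, with 275, 287 and 262 normalised counts with Cort, against 383, 384 and 329.9 with vehicle. This was 1.33-fold lower (limma adjusted p = 0.00851), but the call was lost without vehicle replicate 1 (limma adjusted p = 0.0525) or vehicle replicate 2 (limma adjusted p = 0.0749). In wt cells Bbc3 had 313, 306 and 313 with Cort and 314, 373 and 401 with vehicle, which did not pass (limma adjusted p = 0.339), and the difference between the lines did not pass either (-0.20 ± 0.13, SE; limma adjusted p = 0.851). Of the 9 members tested, 1 was called higher and 2 lower with Cort in tetra cells, where 3.34% of all genes tested were called, 2.47% higher and 0.871% lower. In wt cells 1 was called higher and 1 lower, where 2.38% of genes were called, 0.918% higher and 1.47% lower. The Cort and vehicle libraries did not overlap for 4 members in tetra cells, where 16.2% of genes had no overlap, and for 3 members in wt cells, where 19.5% had none. The other members (Mcl1, Bcl2, Bcl2l2, Bax, Bak1 and Bmf) had log2 differences from -0.09 to 0.10 in tetra cells and from -0.12 to 0.21 in wt cells, with limma adjusted p from 0.362 to 0.980 and from 0.130 to 0.975. Bcl2l2 in wt cells stood at the upper end of that range, at 1106, 1017 and 945 with Cort and 855, 869 and 946 with vehicle. Bcl2l2 there was called without Cort replicate 3 (limma adjusted p = 0.0167) and with scaling to total exon reads (limma adjusted p = 0.0405).

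With TCA present, Cort was again followed by a high Bcl2l1 level in tetra cells and by a smaller difference in wt cells. In tetra cells Bcl2l1 had 4683, 4554 and 4148 normalised counts with TCA plus Cort, against 2096, 1713 and 1911 with TCA alone. In wt cells it had 2391, 2279 and 2224 with TCA plus Cort, against 1973, 1859 and 2066 with TCA alone. In neither line did the groups overlap. The tetra difference was 2.34-fold (limma adjusted p = 1.16e-07), and the wt difference was 1.17-fold and missed the threshold (limma adjusted p = 0.0797). The response was 1.01 ± 0.10 (SE) larger on the log2 scale in tetra than in wt cells (limma adjusted p = 1.07e-05). In that test 0.656% of genes were called, 0.547% with a larger and 0.109% with a smaller value in tetra cells, and no other of the 9 members was. Bcl2l1 was the 1 member of 9 called in tetra cells for TCA plus Cort against TCA, where 1.71% of genes were called, 1.42% higher and 0.288% lower. In wt cells 0 of 9 were called, where limma called 0.415% of genes, 0.274% higher and 0.141% lower, and 2204 genes had an unadjusted p under 0.05. The groups did not overlap for 4 members in tetra cells, where 11.4% of genes had no overlap, and for 2 in wt cells, where 21.8% had none. Without TCA replicate 3 in wt cells, 3 members were called, all higher: Bcl2l1 (limma adjusted p = 0.000137), Bbc3 (limma adjusted p = 0.00913) and Bmf (limma adjusted p = 0.0483). With that library left out, 2570 genes were called in all, 1169 higher and 1401 lower, against 53 in the main result.

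Bcl2l11 did not pass the test for Cort on top of TCA in either line. It had 519.9, 516 and 452 normalised counts with TCA plus Cort in tetra cells, against 672, 542 and 586 with TCA alone (limma adjusted p = 0.361). In wt cells it had 621, 667 and 633 with TCA plus Cort, against 569, 579 and 647 with TCA alone (limma adjusted p = 0.473). The tetra groups were apart and the wt groups overlapped.

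With TCA alone most members passed the test in wt cells and none did in tetra cells. In wt cells 6 of 9 members were called, 1 higher and 5 lower, where 57.4% of all genes tested were called, 28.8% higher and 28.6% lower, so that the members' share (66.7%) was near the background. The same 6 members had groups that did not overlap, as had 62.1% of genes. The median log2 difference of the 9 members was -0.28, beside 0.0027 over all 12725 genes tested. In tetra cells 0 of 9 members were called by limma, where 0.0153% of genes were called and 524 genes had an unadjusted p under 0.05. The deposited table of this comparison held another set of genes (26188, of which 13075 were tested) than the joined libraries (25124). In libraries shared with other tables the counts of members differed by at most 3 reads. Groups did not overlap in tetra cells for 2 members, Bcl2l2 and Mcl1, beside 9.10% of the 12389 tested genes found in the joined libraries. Marker sums moved with TCA in wt cells, and their part in these results was not tested. Epithelial markers summed to 5.97 to 6.91 with TCA and 16.3 to 23.7 with vehicle, and mesenchymal markers to 153281 to 167296 with TCA and 217888 to 223680 with vehicle. Of the 7 mesenchymal markers 6 were tested, of which 4 were called lower and 2 higher, Col1a1 (1.65-fold; limma adjusted p = 0.00153) and Col1a2 (1.24-fold; limma adjusted p = 0.000276). Immune markers summed to 109 to 128 with TCA and 203 to 257 with vehicle, and endothelial markers to 123 to 164 with TCA and 266 to 295 with vehicle. Epcam (epithelial) and Cd3e (immune) were at 0 in the wt TCA libraries. The endothelial sum was mostly Cdh5 (mean 203 normalised counts over the 24 libraries). The immune sum was mostly Cd68 (mean 121) and Lyz2 (mean 31.3). The share of reads on the ribosomal RNA gene Rn45s was 21.3% to 27.9% with TCA and 20.8% to 22.8% with vehicle in wt cells.

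Among the protective members, Bcl2l1, Mcl1 and Bcl2l2 fell with TCA in wt cells. The 3 TCA libraries just given for Bcl2l1 averaged 1966 ± 104, against 2666 ± 41.1 with vehicle, which was 1.36-fold lower (limma adjusted p = 6.68e-06). Mcl1, a short-lived guard of mitochondria, had 3468, 3370.3 and 3494 normalised counts with TCA, against 4400.1, 4226 and 4130.1 with vehicle, and was 1.23-fold lower (limma adjusted p = 7.21e-05). Bcl2l2 had 723, 768 and 689.9 with TCA, against 855, 869 and 946 with vehicle, and was 1.22-fold lower (limma adjusted p = 0.00259). In all 3 genes each TCA library lay below each vehicle library. Bcl2, the founding member, averaged 1195 ± 43.0 with TCA and 1145 ± 56.3 with vehicle (limma adjusted p = 0.332).

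The pore former Bax was the 1 member that rose with TCA in wt cells. It had 2517, 2539 and 2712 normalised counts with TCA, against 1929, 2099 and 2286 with vehicle, a 1.23-fold difference with no overlap (limma adjusted p = 0.000675). Bak1 averaged 3131 ± 283 with TCA and 3093 ± 6.53 with vehicle, with overlap (limma adjusted p = 0.773). In a GENCODE annotation 25.5% of the exon bases of Bak1 overlap Ggnbp1 on the opposite strand. Of those of Bax 12.2% overlap the predicted gene Gm45808 on the same strand. Reads of genes that overlap on the same strand may be mixed under any strand setting. Those on opposite strands may be mixed because no strand setting is stated. The corresponding share is 13.3% for Bcl2l2 (with Gm20521, same strand) and 6.09% for Bcl2 (with D630008O14Rik, opposite strand).

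The BH3-only members fell with TCA in wt cells where they passed the test. Bmf, whose protein is known to be held at the cytoskeleton in healthy cells, had 19.9, 23.3 and 19.7 normalised counts with TCA, against 99.3, 107 and 117 with vehicle. All TCA libraries lay far under all vehicle libraries, a 5.14-fold lower level (limma adjusted p = 1.37e-07). Bcl2l11 averaged 599 ± 42.6 with TCA and 893 ± 22.4 with vehicle, 1.49-fold lower with no overlap (limma adjusted p = 7.5e-06). Bbc3 had 388, 390.0 and 459.9 with TCA and 314, 373 and 401 with vehicle, which overlapped and did not pass (limma adjusted p = 0.125).

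In tetra cells the same treatment gave limma adjusted p from 0.941 to 0.982 for the 9 members, with log2 differences from -0.21 for Bak1 to 0.14 for Mcl1. Bmf had 54.8, 29.8 and 40.1 normalised counts with TCA and 46.5, 30.9 and 53.7 with vehicle there, and the groups overlapped. The test of the difference between the lines was passed by 6 of 9 members, where 41.5% of genes were called, 21.4% with a higher and 20.1% with a lower value in tetra cells. On the log2 scale the TCA response, tetra minus wt, was 2.23 ± 0.33 for Bmf (limma adjusted p = 2.71e-05), 0.60 ± 0.11 for Bcl2l11 (limma adjusted p = 0.000275), 0.57 ± 0.09 for Bcl2l1 (limma adjusted p = 8.47e-05), 0.44 ± 0.07 for Mcl1 (limma adjusted p = 0.000111), 0.36 ± 0.09 for Bcl2l2 (limma adjusted p = 0.00388) and -0.41 ± 0.09 for Bax (limma adjusted p = 0.00161), with SE. No label names a batch, and a batch shared by the wt libraries given TCA, with or without Cort, cannot be told apart from the treatment.

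**Figure D2:**
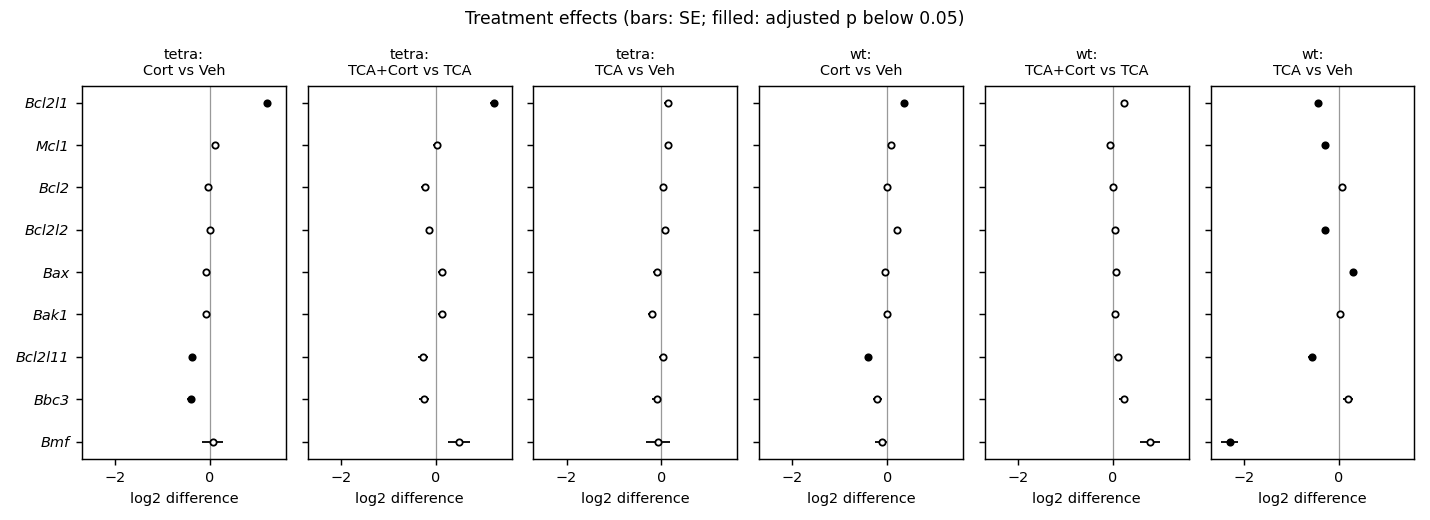
Log2 differences of the 9 tested members with their SE in 6 comparisons, tetra cells left of wt cells (filled points: limma adjusted p below 0.05; n = 3 per group). Bcl2l1 lies at 1.20 with Cort in tetra cells and 0.36 in wt cells, and Bmf lies at -2.30 with TCA in wt cells and -0.08 in tetra cells.

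The combination was also set against Cort alone, which asks what TCA did in the presence of the hormone. In wt cells 6 of 9 members were called, 2 higher and 4 lower, where 58.8% of genes were called, 29.8% higher and 29.0% lower. The groups did not overlap for 7 members, as for 63.8% of genes. Marker sums moved here too, and their part in these calls was not tested. Immune markers summed to 109 to 138 with TCA plus Cort and 236 to 293 with Cort, and endothelial markers to 97.7 to 149 with TCA plus Cort and 283 to 309 with Cort. Mesenchymal markers summed to 150478 to 152473 with TCA plus Cort and 195936 to 206138 with Cort. Of the 6 mesenchymal markers tested here, 2 were called higher and 3 lower with TCA plus Cort. Epithelial markers summed to 6.33 to 11.8 with TCA plus Cort and 14.2 to 38.0 with Cort. Epcam and Cd3e were at 0 in both groups, whereas Cdh5, Cd68 and Lyz2 had reads in every library. Rn45s took 25.6% to 28.6% of reads with TCA plus Cort and 18.2% to 21.6% with Cort. Bax (2697, 2800 and 2638 normalised counts with TCA plus Cort, against 2071, 2099 and 1922 with Cort) was 1.34-fold higher (limma adjusted p = 3.83e-07). Bbc3 (524, 490 and 433 with TCA plus Cort, against 313, 306 and 313 with Cort) was 1.55-fold higher (limma adjusted p = 2.01e-06). No library of these genes with the combination was as low as one with Cort alone. Bmf fell to 36.5, 35.3 and 38.0 with TCA plus Cort, against 101, 102 and 91.9 with Cort, 2.69-fold lower (limma adjusted p = 5.7e-07). Bcl2l1 was 1.48-fold lower (2298 ± 85.2 against 3392 ± 144; limma adjusted p = 6.14e-09), Mcl1 was 1.35-fold lower (3310 ± 101 against 4464 ± 224; limma adjusted p = 2.22e-07) and Bcl2l2 was 1.36-fold lower (752 ± 24.8 against 1023 ± 81.1; limma adjusted p = 9.2e-06). In tetra cells 0 of 9 members were called by limma, where 0.0622% of genes were called and 845 genes had an unadjusted p under 0.05. Groups did not overlap there for 2 members, Bcl2 and Mcl1, beside 9.76% of genes. Bcl2l1 there was 1.12-fold higher with the combination, with overlapping libraries (4462 ± 279 against 3983 ± 216; limma adjusted p = 0.759).

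Whether the Cort response itself changed with TCA was tested in each line. In wt cells 2 of 9 members were called, both with a higher value with TCA, where 3.51% of genes were called, 1.94% higher and 1.57% lower. The Bcl2l11 response was 0.51 ± 0.09 (SE) higher on the log2 scale with TCA than without (limma adjusted p = 0.00344), since it was 0.10 ± 0.07 with TCA and -0.41 ± 0.06 without it. The Bmf response was 0.90 ± 0.23 (SE) higher with TCA (limma adjusted p = 0.0338), at 0.78 ± 0.21 with TCA and -0.12 ± 0.14 without. The Bmf call was lost with no filter on low counts (limma adjusted p = 0.0862), with the replicate block (limma adjusted p = 0.0630), with voom, with scaling to total reads and without any of 9 of the 12 libraries, and rests on 19.7 to 38.0 normalised counts in the TCA groups. The Bcl2l1 response differed by -0.13 ± 0.07 (SE), which did not pass (limma adjusted p = 0.315). In tetra cells 0 of 9 members were called by limma, as were 0 of 12846 genes, of which 510 had an unadjusted p under 0.05. The Bcl2l1 response there differed by 0.03 ± 0.10 (SE; limma adjusted p = 0.977).

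**Figure D3:**
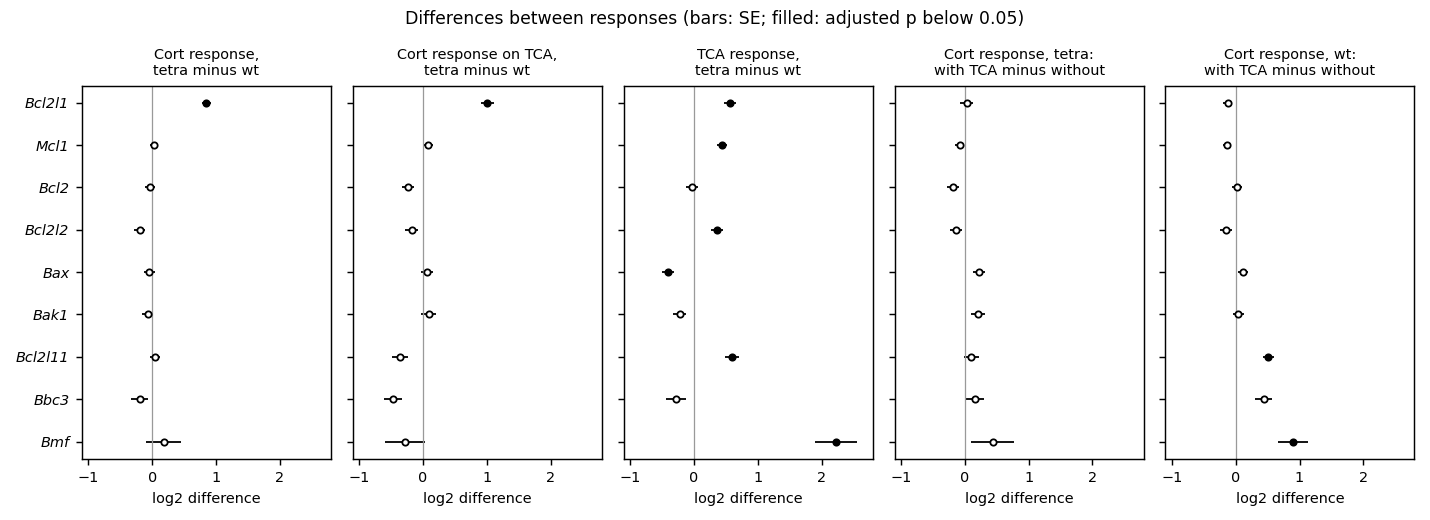
Differences between responses on the log2 scale with their SE for the 9 tested members (filled points: limma adjusted p below 0.05). Bcl2l1 stands alone in both tests of the Cort response of tetra minus wt, at 0.85 without TCA and 1.01 with TCA, and 6 members are filled for the TCA response.

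With vehicle alone the lines differed in 5 of 9 members, where 44.2% of genes tested were called, 21.4% higher and 22.8% lower in tetra cells. Bmf had 46.5, 30.9 and 53.7 normalised counts in tetra cells, against 99.3, 107 and 117 in wt cells, 2.47-fold lower (limma adjusted p = 2.36e-06). Bcl2l1 was 1.54-fold lower (limma adjusted p = 6.38e-12) and Bcl2l11 was 1.52-fold lower in tetra cells (limma adjusted p = 4.76e-09), from the libraries given above. Mcl1 had 3256, 3351 and 3416 in tetra cells, against 4400.1, 4226 and 4130.1 in wt cells, 1.27-fold lower (limma adjusted p = 1.34e-07). Bcl2 had 1262, 1365 and 1299 in tetra cells, against 1176, 1080.4 and 1180 in wt cells, 1.14-fold higher (limma adjusted p = 0.00542). In all 5 genes, and in Bak1, the lines did not overlap, as in 52.1% of genes. Here the receptor form cannot be told apart from the line that carries it. Marker sums also differed between the lines, and their part in these calls was not tested: immune markers summed to 121 to 138 in tetra cells and 203 to 257 in wt cells, and endothelial markers to 194 to 209 in tetra cells and 266 to 295 in wt cells. Mesenchymal markers summed to 193917 to 198874 in tetra cells and 217888 to 223680 in wt cells. Of the 7 mesenchymal markers, all tested, 3 were called higher and 3 lower in tetra cells, with a median log2 difference of 0.24. Epithelial markers summed to 14.5 to 16.9 in tetra cells and 16.3 to 23.7 in wt cells. Epcam and Cd3e were at 0 in both groups, whereas Cdh5 (endothelial), Cd68 and Lyz2 (both immune) had reads in every library. The untreated tetra cells and the wt cells with TCA both lay below wt vehicle for Bcl2l1 (1734 ± 65.9 and 1966 ± 104), Mcl1 (3341 ± 80.9 and 3444 ± 65.2) and Bcl2l11 (587 ± 19.5 and 599 ± 42.6), and both were compared with the same wt vehicle libraries. This was not particular to these groups: Mcl1 averaged 3310 with TCA plus Cort in wt cells, and Bcl2l11 averaged 454 with Cort in tetra cells. Other members were less alike in untreated tetra cells and wt cells with TCA: Bax (2198 and 2589), Bcl2l2 (874 and 727) and Bmf (43.7 and 21.0). In the order of the 8 groups from low to high, Bcl2l1 ran from vehicle and TCA in tetra cells and TCA in wt cells, which overlapped as neighbours, through TCA plus Cort, vehicle and Cort in wt cells, which did not, to Cort and TCA plus Cort in tetra cells, which overlapped.

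Ratios between members within a library do not depend on the scaling of libraries. Bcl2l1 reads per Bcl2l11 read, a protective gene over the BH3-only gene whose product it binds, were 9.01, 8.83 and 9.17 with TCA plus Cort and 3.12, 3.16 and 3.26 with TCA in tetra cells. They were 8.61, 9.22 and 8.49 with Cort, against 3.04, 2.96 and 2.87 with vehicle in the same line. In wt cells they were 5.20, 5.19 and 4.86 with Cort, against 2.94, 3.01 and 3.00 with vehicle. The vehicle ratios of the lines thus lay close together, at 2.95 ± 0.09 in tetra and 2.99 ± 0.04 in wt cells (SD, n = 3 each), although both genes were lower in tetra cells. With TCA plus Cort in wt cells the ratio was 3.59 ± 0.23, against 3.29 ± 0.15 with TCA.

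Bax reads per Bcl2l1 read averaged 0.519 ± 0.038 with Cort and 1.27 ± 0.09 with vehicle in tetra cells (SD, n = 3 each). In wt cells the ratio averaged 1.32 ± 0.05 with TCA, 0.599 ± 0.008 with Cort and 0.790 ± 0.069 with vehicle. Among the 4 protective members, summed per kilobase, Bcl2l1 made up 50.8% ± 1.7 with Cort and 32.0% ± 1.2 with vehicle in tetra cells, and 42.6% ± 1.7 with Cort and 38.1% ± 0.3 with vehicle in wt cells. Mcl1 made up 34.7% ± 1.6 with Cort and 46.8% ± 0.9 with vehicle in tetra cells. Mcl1 was therefore the leading protective transcript in untreated tetra cells and Bcl2l1 after Cort. In wt cells Mcl1 made up 42.5% ± 2.1 with Cort and 46.1% ± 1.0 with vehicle. It thus led in untreated wt cells too, and stood about level with Bcl2l1 after Cort. These ratios are descriptions without a test.

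**Figure D4:**
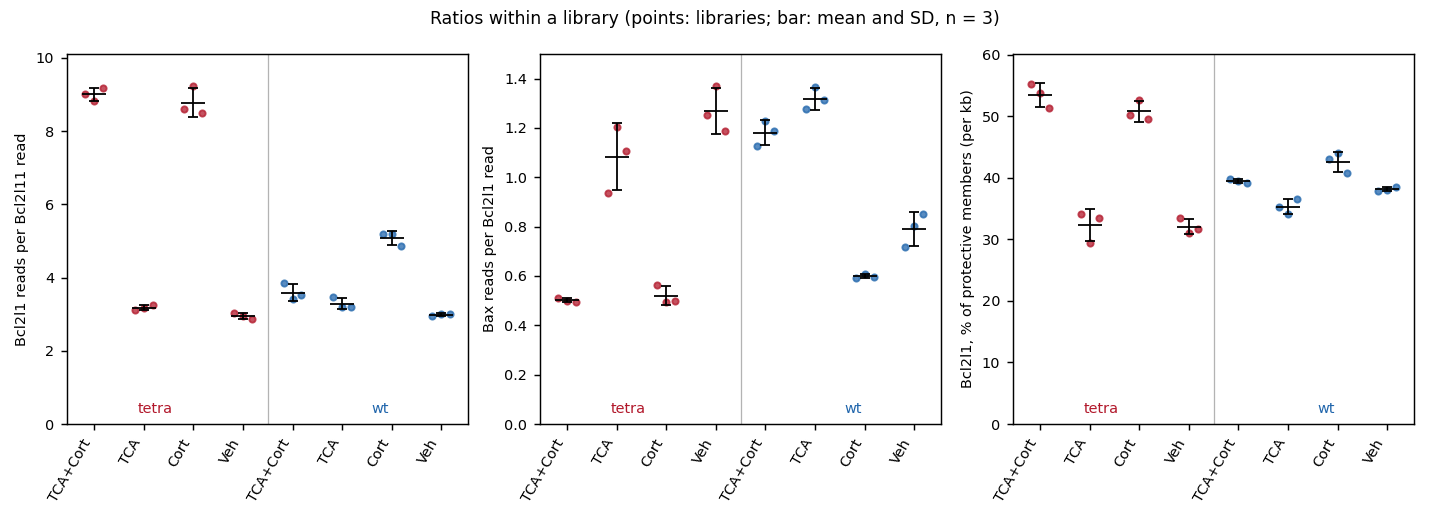
Ratios within each library by group (linear axes from 0; points are libraries, bars the mean and SD of 3). In tetra cells Bcl2l1 reads per Bcl2l11 read lie between 8.49 and 9.22 with Cort and between 2.87 and 3.04 with vehicle.

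Other genes of the pathway were counted from 5 lists. They held 16 further Bcl2 family genes (8 tested in each comparison), 12 caspase and apoptosome genes (11 tested) and 7 inhibitors of apoptosis (6 tested). The others were 7 death receptors and adaptors (6 or 7 tested) and 15 upstream regulators (all tested). With Cort in wt cells none of these was called by limma, where 2.38% of all genes tested were called. In tetra cells that share with Cort was 3.34%, 2.47% higher and 0.871% lower. With Cort in tetra cells 3 rose: Apaf1, the scaffold of the apoptosome, was 1.25-fold higher (880 ± 45.5 against 706 ± 16.1; limma adjusted p = 0.00383), Cflar, an inhibitor of caspase-8 activation, was 1.22-fold higher (limma adjusted p = 0.00268), and Foxo1, a transcription factor known to activate Bcl2l11, was 1.22-fold higher (1551 ± 18.5 against 1276 ± 65.9; limma adjusted p = 0.0029). Foxo1 was also the single gene of the 5 lists that passed the test of the difference between the lines (0.33 ± 0.08, SE; limma adjusted p = 0.0401). That test called 1.17% of all genes tested, and its 150 calls became 88 with no trend. For TCA plus Cort against TCA the lists gave 0 calls by limma in tetra cells, where 1.71% of genes were called. In wt cells, where 0.415% were called, they gave 1, Ddit3, the stress factor CHOP, at 1.17-fold higher (limma adjusted p = 0.0443). The wt test called 53 genes, but 9 with the replicate block and 6 to 2570 with a library left out. The alternatives were not tried for genes of the lists, so the calls of Foxo1 and Ddit3 were not checked in this way.

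With TCA in wt cells the upstream regulators had 9 genes called higher and 1 lower, among them Trib3 (4.31-fold higher; limma adjusted p = 3.99e-12), Ddit3 (1.77-fold higher; limma adjusted p = 1.08e-08) and Atf4 (1.62-fold higher; limma adjusted p = 2.04e-08), genes of the integrated stress response. Trib3 had 8284, 8147 and 8546 normalised counts with TCA in wt cells, against 1757, 2051 and 1991 with vehicle. In tetra cells Trib3 had 3435, 3629 and 3828 with TCA, against 3325, 3887 and 3624 with vehicle, and no gene of the 5 lists was called there. Of the other Bcl2 family genes in wt cells 1 rose and 4 fell: Bnip3, a mitophagy receptor, was 1.43-fold higher, and Bok and Bad, a pore former and a BH3-only gene, were 1.59-fold and 1.36-fold lower. The caspase and apoptosome genes had 5 higher and 2 lower, with Cycs (cytochrome c) 1.39-fold higher and Casp9, the initiator caspase of the mitochondrial pathway, 1.56-fold lower. The inhibitors had 2 higher and 4 lower, with Birc5 (survivin) 1.32-fold higher and Naip2 1.62-fold lower, and the death receptors and adaptors had 3 higher and 4 lower. In that comparison 28.8% of all genes tested were called higher and 28.6% lower.

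The genes whose pattern over the 8 group means was most like that of each member were found among 11126 genes by Pearson r, as a description in which neighbouring groups share a line and a treatment. For Bcl2l1 these were Phyhd1 (r = 0.990), Nfkbia (r = 0.985), the gene of an inhibitor of NF-κB, and Abhd2 (r = 0.977). For Bcl2l11 they were Med28, 4930447F24Rik and Slc9a3r1 (r = 0.975, 0.971 and 0.962), and for Bmf they included Pmpcb and Cant1 (r = 0.988 and 0.987). Bax was most like Clpp and Mrpl12 (r = 0.990 and 0.989), and Mcl1 most like Ppt1 and Lmo7 (r = 0.984 and 0.983). Between members, the lowest r was -0.91 for Bax with Bcl2l2 and the highest was 0.87 for Mcl1 with Bmf.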

How the data were processed

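RNA-seq libraries (stranded total RNA with ribosomal RNA removal, per the labels) came from 8 groups of 3. Per the submitters' processing notes, the authors used cutadapt, STAR 2.7.0f and HOMER 4.10.4 with mm10. The deposited values are variance-stabilised and log2-like, set separately in each of 6 tables, per the file headers; no strand setting is stated. Header commands of some tables name Halo where column names and labels say GFP; columns were matched by the latter. The authors' own comparison columns were not used.

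The scale was inverted to counts: all of those under 1000 (100%) came out whole with a tolerance of 0.01. Counts were scaled by median ratios over 24 libraries. Libraries held 22.02 M to 30.6 M exon reads, so a floor of 3 counts equals 0.0981 to 0.136 CPM; floors cover counting error only.

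Treated against control within a table was tested with limma 3.58.1 (R 4.3.3, intensity trend) on deposited values. Other comparisons and all differences used log2(normalised count + 1), as do the printed log2 values and SE unless the deposited scale is named. Folds are ratios of the normalised means. Genes needed a mean of 10; p-values were Benjamini-Hochberg adjusted over all genes tested. The fits were tested on simulated data. Figures used Python 3.11.15 and matplotlib 3.10.9. The alternatives tried were no filter, no trend, voom, total-read scaling, another pseudocount or scale, a replicate block and leaving out each library.

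All 10 members were followed in every comparison; up to 3 called genes of smallest adjusted p were named per list, and Nr3c1 was added. Some genes that the rule covers are not reported here. Members and lists were chosen with earlier results of these data known.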

Additional observations from a re-analysis of the deposited data

Results flagged for a closer look

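Tests of a difference between responses were passed by 10 member results, which are given here because the effect in one setting differed from that in another. The Cort response of Bcl2l1 was larger in tetra than in wt cells by 0.85 ± 0.07 on the log2 scale without TCA and by 1.01 ± 0.10 with TCA (SE; limma adjusted p = 6.77e-08 and 1.07e-05). Of all genes tested, 1.17% were called without TCA and 0.656% with TCA. The TCA response, tetra minus wt, was 2.23 for Bmf, 0.60 for Bcl2l11, 0.57 for Bcl2l1, 0.44 for Mcl1, 0.36 for Bcl2l2 and -0.41 for Bax, all on the log2 scale. That test called 6 of 9 members (66.7%), beside 41.5% of all genes tested. In wt cells the Cort response with TCA minus that without was 0.51 for Bcl2l11 and 0.90 for Bmf, where 3.51% of genes were called. The Bmf call was lost under several of the alternatives tried.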

How the results depend on the processing

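No called member result changed sign under the alternatives tried, while some uncalled ones near 0 did. Bak1 with TCA in wt cells was such a case, at -0.036 to 0.088 on the deposited scale with a library left out. The called member results that lost their call under any alternative were Bbc3 with Cort in tetra cells and Bmf for the Cort response with TCA minus without in wt cells. The Bmf value, 0.90 on the log2 scale, stayed between 0.80 and 0.98 under all alternatives, with limma adjusted p from 0.0251 to 0.103. Replicate numbers gave no steady pairing of the samples, with correlations of same-numbered deviations from -0.213 to 0.247. For TCA plus Cort against Cort the same number was the best match in 3 of 3 cases in each line. Those correlations were low (0.0322 to 0.113 in wt and 0.0421 to 0.204 in tetra cells), and no other comparison of 2 groups had this. The replicate block ended the Bmf call (limma adjusted p = 0.0630) and changed no other member call. Genes called for TCA plus Cort against TCA in wt cells numbered 53, but 16 with scaling to total exon reads, 9 with the replicate block and 6 to 2570 with a library left out, 2570 being without wt TCA replicate 3; members called there were 0 to 3, with 0 in the main result. For TCA in tetra cells the 2 genes called became 5 with no filter, 1 with scaling to total reads, 11 with the block and 1 to 6 with a library left out. For TCA plus Cort against Cort in tetra cells the 8 genes called became 0 with no trend, 77 with the block and 1 to 263 with a library left out, 263 being without TCA plus Cort replicate 3. The Cort response, tetra minus wt, had 150 genes called and 88 with no trend; on TCA it had 84, and 52 to 120 with a library left out. The Cort response with TCA minus without in wt cells had 449 genes called, but 269 with no filter, 52 with no trend, 236 with the block and 145 to 1659 with a library left out, 1659 being without wt TCA replicate 3; scaling to total reads shifted the median of all genes there by -0.11. Members called for it numbered 2, but 1 with no filter, with voom, with scaling to total reads and with the block, and 1 to 3 with a library left out. Cort in wt cells had 304 genes called and 148 to 499 with a library left out (148 without vehicle replicate 3, 499 without Cort replicate 3). The cause was not tested. Bax in tetra against wt with vehicle was called with scaling to total reads (limma adjusted p = 0.0327). Bak1 was called there without tetra vehicle replicate 1 (limma adjusted p = 0.0322). At this depth a gene such as Pmaip1, with 1 read in all libraries, gives no detectable difference.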

Other observations

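Genes of the 5 pathway lists also differed between the lines with vehicle alone. Bnip3, a mitophagy receptor, averaged 1684 normalised counts in tetra cells and 836 in wt cells, 2.01-fold higher (limma adjusted p = 5.61e-14). Trib3 was 1.87-fold higher in tetra cells (3612 ± 281 against 1933 ± 155, SD, n = 3 each; limma adjusted p = 2.01e-13) and Jun, a stress-responsive transcription factor, was 1.46-fold higher (limma adjusted p = 3.78e-11). Bad was 1.36-fold lower (limma adjusted p = 1.44e-05) and Casp9 was 1.31-fold lower (limma adjusted p = 5.6e-06). Of the further Bcl2 family genes 1 was higher and 3 were lower, of 8 tested, beside 21.4% of all genes called higher and 22.8% called lower. Bcl2a1a and Bcl2a1b, protective relatives known from blood cells, were at 0 in all 24 libraries.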
